A study of Mus musculus with 24 samples.

Results

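The 43 genes described here are a set of striated muscle and heart genes chosen by symbol from the deposited RPKM table, in which the reads on a gene's exons are scaled to exonic length and library total. They comprise 15 genes used by heart muscle of both chambers, 3 atrial genes, 3 ventricular genes, 11 genes of skeletal muscle and 11 genes shared by striated muscles. The symbols matched 45 of the 33079 rows, because Nppa and Ttn each had a second row, and the row with the longer exonic length was used. The 24 libraries came from mouse embryonic stem cells carrying a Per2::Luciferase knock-in, kept either as they were (WT) or made deficient for Rev-erbα and Rev-erbβ with CRISPR/Cas9 (KO). Both genotypes were differentiated through embryoid bodies for 28 days, given 100 nM dexamethasone and collected every 4 h from 12 to 56 h later. Each of the 12 hours gave 1 WT and 1 KO library, and each library pooled RNA of 3 embryoid bodies. The knock-in and the glucocorticoid were therefore common to all libraries. Exons of Rev-erbα were removed in a line that already lacked Rev-erbβ, so the loss of REV-ERBs and the history of this line cannot be told apart. The 12 hours of a genotype stand in for replicates, and p-values measure the spread between these libraries.

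Striated muscle contracts when myosin heads of the thick filament pull on actin of the thin filament. Calcium released from the sarcoplasmic reticulum starts the cycle by binding troponin C, which works with troponin I and troponin T on the thin filament. Heart atrium, heart ventricle, slow and fast skeletal muscle use different paralogs of most of these proteins, and the embryonic heart and embryonic skeletal muscle express several of each other's forms. REV-ERBs are heme-binding nuclear receptors that repress transcription and belong to the circadian clock.

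Fragments on exons ran from 6183500.5 to 10287969 per library. The rows of the targeted genes cover whole transcripts, so they do not test the removal of an exon. Nr1d1, which encodes REV-ERBα, lay between 3.58 and 7.48 RPKM in WT (median 4.67) and between 2.48 and 9.74 in KO (median 6.93). Nr1d2, which encodes REV-ERBβ, lay between 0.895 and 3.02 RPKM in WT (median 1.83) and between 1.38 and 5.27 in KO (median 3.16). Npas2, a clock gene that REV-ERBs repress, was between 2.16 and 3.43 RPKM in WT and between 3.68 and 4.90 in KO, with no overlap.

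Most of the heart and muscle genes were higher in KO. Of the 43 genes, 39 passed the filter of a mean above 0.5 RPM (reads scaled to library total alone) in WT or KO, 36 of them in both genotypes and Nppa, Tcap and Smpx through KO alone. In the limma fit of log2(RPKM + 0.1) over 15112 genes, 27 of the 39 were higher in KO and 2 were lower at a Benjamini-Hochberg adjusted p under 0.05, and 10 did not pass. The same test called 11.2% of all tested genes higher and 14.7% lower, or 25.9% in either direction. The median log2 difference of KO minus WT was 0.58 over the 39 genes and −0.01 over all tested genes. By class, 11 of 15 heart genes rose, all 3 atrial and all 3 ventricular genes rose, 2 of 7 tested skeletal genes rose, and 8 of 11 shared genes rose, while Tnnt2 among the heart genes and Myom1 among the shared genes fell. In bulk RNA of embryoid bodies, a change in the number of muscle cells and a change in RNA per muscle cell cannot be told apart. Without the libraries of 12 h, in which many of these genes had their lowest WT level, 24 of the 39 genes were higher and 2 lower. Within the first 6 hours sampled (12 to 32 h) 8 genes passed as higher and 2 as lower, and within the last 6 (36 to 56 h) 23 passed as higher and 0 as lower by limma (at an unadjusted p under 0.05, 21 and 2 genes in the first 6 hours and 28 and 0 in the last 6). With a pseudocount of 1 in place of 0.1 the log2 difference moved by over 1.5 times in 21 of the 39 genes, all with a KO median of at most 2.05 RPKM, and the number of genes called higher stayed at 27.

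**Figure D1:**
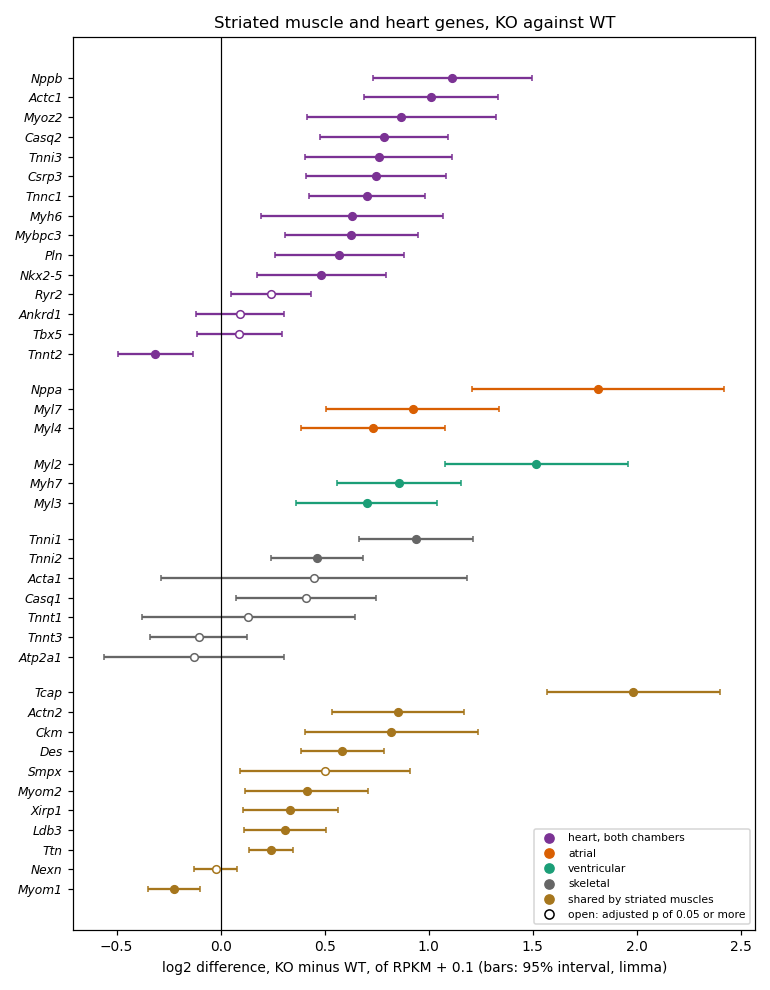
Log2 difference of KO minus WT (horizontal axis, on RPKM + 0.1) for the 39 tested genes, grouped by class, with 95% intervals from limma and filled points for an adjusted p under 0.05. Tcap at 1.98 and Nppa at 1.81 lie farthest to the right, and Tnnt2 at −0.31 and Myom1 at −0.22 are the filled points left of 0.

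The levels of these genes, per length of transcript, spanned a wide range within the same libraries. Cardiac troponin T, Tnnt2, had the highest mean level, with WT libraries between 35.3 and 55.8 RPKM. Cardiac α-actin, Actc1, ranked second in both genotypes. By mean level Nexn and Myh6 came next in WT, at 6.98 and 6.19 RPKM, and Myl2 and Myh6 in KO, at 11.9 and 9.89 RPKM, each pair differing by less than the SD of Myh6. The lowest mean belonged to Mybpc2, the fast skeletal myosin-binding protein C, which did not exceed 0.0407 RPKM in any library and was listed at 0 in 3 WT libraries and 1 KO library. Mybpc2, Mybpc1, Tnnc2 and Myoz1, all skeletal, were the 4 genes that did not pass the filter.

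Among genes of both heart chambers, Myh6 (chr14:54941921-54966607, minus strand, GRCm38/mm10) encodes the fast α-myosin heavy chain. It lay between 2.62 and 8.66 RPKM in WT, with a median of 6.38, and between 3.93 and 15.0 in KO, with a median of 10.3. KO exceeded WT at 10 of the 12 hours, but the ranges overlapped. The log2 difference was 0.63 (SE 0.21, adjusted p = 0.030). This call did not survive removal of the libraries of 12, 20, 28, 40, 52 or 56 h, each left out in turn (log2 differences between 0.49 and 0.61, adjusted p between 0.055 and 0.081). It was also lost with the hour as a block (adjusted p = 0.066). Mybpc3, the cardiac myosin-binding protein C of the same filament, rose from a median of 1.2 RPKM in WT (0.674 to 1.6) to 1.89 in KO (1.09 to 3.59), a log2 difference of 0.63 (SE 0.16, adjusted p = 0.0046).

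On the thin filament, 3 of the 4 cardiac genes rose and 1 fell. Actc1 (chr2:114047284-114052875, minus strand) lay between 5.55 and 17.2 RPKM in WT, with a median of 11.6, and between 14.2 and 32.8 in KO, with a median of 22.1. It was higher in KO at all 12 hours, and 10 of the 12 KO libraries lay above the highest WT library. KO minus WT gave a log2 difference of 1.01 (SE 0.16, adjusted p = 6.9e-05). Cardiac troponin I, Tnni3, went from 1.38 to 4.58 RPKM in WT (median 3.66) to 4.01 to 8.79 in KO (median 5.07), with a log2 difference of 0.76 (SE 0.17, adjusted p = 0.0022). Tnnc1, the troponin C that heart shares with slow skeletal muscle, went from 1.91 to 4.32 RPKM (median 3.38) to 3.92 to 7.52 (median 5.30), with a log2 difference of 0.70 (SE 0.14, adjusted p = 5.9e-04). In both of them KO was higher at 11 of 12 hours.

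Tnnt2 (chr1:135836334-135852268, plus strand), the troponin T partner of these genes, moved the other way. Its WT libraries had a median of 46.5 RPKM and its KO libraries ran from 30.2 to 51.8 with a median of 35.1. The ranges overlapped, 6 KO libraries lay below the lowest WT library, and KO was higher at 2 of 12 hours. On the log2 scale the genotypes differed by −0.31 (SE 0.09, adjusted p = 0.0098), and it rested on 971 fragments per library on average in WT and 776 in KO. In the first 6 hours sampled the difference was −0.42 (adjusted p = 0.035) and in the last 6 it was −0.20 (adjusted p = 0.31). The test of a different time trend in KO did not pass (adjusted p = 0.84). Acta2, smooth muscle actin, did not pass between the genotypes (log2 difference 0.08, adjusted p = 0.29), and its correlation with Tnnt2 over the 12 libraries of a genotype was 0.498 in WT and −0.387 in KO (Pearson, permutation test, adjusted p = 0.277 for both).

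Tnnt2 lies next to the slow skeletal troponin I gene Tnni1, with a gap of 25344 bases on chromosome 1, and the neighbours differed in direction: the ratio of mean KO to mean WT RPKM was 1.94 for Tnni1 and 0.806 for Tnnt2. The 150 bases upstream of each start are shown for that reason, from RefSeq on GRCm38.p6. The Tnni1 stretch is chr1:135799271-135799420 and that of Tnnt2 is chr1:135836184-135836333, both on the plus strand, and capitals mark CATTCC, the core of the M-CAT element that TEAD factors bind.
Tnni1: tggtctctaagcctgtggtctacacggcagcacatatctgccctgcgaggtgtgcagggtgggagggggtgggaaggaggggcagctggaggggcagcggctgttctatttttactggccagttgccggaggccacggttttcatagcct
Tnnt2: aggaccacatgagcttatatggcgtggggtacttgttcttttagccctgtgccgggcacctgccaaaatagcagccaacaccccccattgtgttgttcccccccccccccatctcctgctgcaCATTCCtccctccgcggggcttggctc
The Tnnt2 stretch held CATTCC at −27, counted from its start site, and the Tnni1 stretch held none of the 6 motifs searched.

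Nppb, the gene of B-type natriuretic peptide, a hormone that heart muscle secretes under stretch, was between 0.269 and 1.47 RPKM in WT (median 0.743) and between 1.21 and 2.62 in KO (median 1.57). KO was higher at all 12 hours and 8 KO libraries lay above every WT library. The log2 difference was 1.11 (SE 0.19, adjusted p = 1.4e-04), on means of 10.7 fragments per WT library and 23 per KO library. The atrial gene Nppa, which encodes atrial natriuretic peptide and starts 13516 bases downstream of the end of Nppb on chromosome 4, was between 0.0334 and 0.611 RPKM in WT (median 0.269) and between 0.366 and 2.08 in KO (median 1.09). It too was higher in KO at all 12 hours, and 10 KO libraries lay above every WT library. Its log2 difference was 1.81 (SE 0.29, adjusted p = 1.1e-04), and mean KO was 4.50 times mean WT. Nppa passed the filter through KO alone, the group in which it was high, with means of 0.214 RPM in WT and 0.963 in KO. With a pseudocount of 1 the log2 difference was 0.73. The WT level rested on 3.75 fragments per library, which gives a counting error (51.6% of the mean) close to the 68.5% found between libraries. The second Nppa row, an antisense transcript, lay between 0.0394 and 0.428 RPKM in WT and between 0.284 and 1.91 in KO. The library kit does not mark strand, so reads of the gene and of its antisense partner cannot be told apart.

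The 150 bases upstream of the RefSeq starts of both peptide genes are shown because these neighbours rose together. They are chr4:147985750-147985899 for Nppb and chr4:148000572-148000721 for Nppa, on the plus strand of GRCm38.p6. Capitals mark the TATA box (TATAAA), the GATA factor motif (AGATAA) and, read on the opposite strand, CATTCC. The RefSeq start of Nppb lies 112 bases inside the deposited transcript.
Nppb: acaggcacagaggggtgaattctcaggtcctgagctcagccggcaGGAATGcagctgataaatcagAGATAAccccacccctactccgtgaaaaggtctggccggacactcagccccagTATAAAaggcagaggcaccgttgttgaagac
Nppa: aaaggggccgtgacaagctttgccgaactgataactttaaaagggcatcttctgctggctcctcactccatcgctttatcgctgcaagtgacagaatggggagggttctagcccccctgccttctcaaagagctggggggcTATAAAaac
Both stretches held TATAAA, at −31 counted from the Nppb start and at −9 from the Nppa start.

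Of the genes of calcium handling, Pln and Casq2 rose. Phospholamban, Pln, the brake of the calcium pump, was between 0.713 and 1.98 RPKM in WT (median 1.38) and between 1.2 and 3.16 in KO (median 2.04), with a log2 difference of 0.57 (SE 0.15, adjusted p = 0.0073). Cardiac calsequestrin, Casq2, which stores calcium in the sarcoplasmic reticulum, had a WT median of 0.428 RPKM (0.185 to 0.902) and a KO median of 0.808 (0.596 to 1.34), with a log2 difference of 0.79 (SE 0.15, adjusted p = 5.3e-04). The calcium release channel Ryr2 lay between 0.163 and 0.321 RPKM in WT (median 0.214) and between 0.174 and 0.379 in KO (median 0.298) and missed the threshold (log2 difference 0.24, SE 0.09, adjusted p = 0.059). Without the libraries of 16, 24, 32 or 36 h it passed, with log2 differences between 0.27 and 0.29 and adjusted p between 0.026 and 0.042.

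Calsarcin-1, Myoz2, and the muscle LIM protein Csrp3 both sit at the Z-disc, where thin filaments of neighbouring sarcomeres are anchored. Myoz2 had a WT median of 0.735 RPKM (0.201 to 1.13) and a KO median of 1.30 (0.576 to 2.73), and its log2 difference was 0.87 (SE 0.22, adjusted p = 0.0054). Csrp3 had a WT median of 1.98 RPKM (1.13 to 3.57) and a KO median of 3.78 (2.10 to 4.82), and its log2 difference was 0.75 (SE 0.16, adjusted p = 0.0017). Ankrd1, a stretch-responsive titin-binding protein, ran from 4.59 to 8.12 RPKM in WT and from 4.22 to 8.87 in KO, with a log2 difference of 0.09 (95% interval −0.12 to 0.31, adjusted p = 0.53).

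The cardiac transcription factor Nkx2-5 lay between 0.177 and 0.538 RPKM in WT (median 0.329) and between 0.227 and 1.01 in KO (median 0.482), with a log2 difference of 0.48 (SE 0.15, adjusted p = 0.020). Tbx5, the T-box factor of atrium and left ventricle, had medians of 0.275 RPKM in WT and 0.272 in KO and did not pass (log2 difference 0.09, 95% interval −0.12 to 0.29, adjusted p = 0.54). Both factors were measured on 9 to 19.6 fragments per library on average.

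The other atrial genes encode myosin light chains. The regulatory chain Myl7 lay between 1.29 and 5.36 RPKM in WT (median 3.64) and between 3.95 and 12.4 in KO (median 6.36), with a log2 difference of 0.92 (SE 0.20, adjusted p = 0.0017). The essential chain Myl4, which embryonic skeletal muscle also expresses, lay between 1.82 and 4.56 RPKM in WT (median 2.38) and between 3.07 and 8.20 in KO (median 4.34), with a log2 difference of 0.73 (SE 0.17, adjusted p = 0.0026). KO was higher at 11 of 12 hours for Myl7 and at 10 of 12 for Myl4, and the ranges overlapped for both.

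The ventricular genes rose as well. Myl2 (chr5:122100980-122106854, plus strand), the ventricular regulatory light chain, had WT libraries between 1.48 and 6.20 RPKM (median 4.18) and KO libraries between 5.32 and 20.6 (median 11.2). Of the KO libraries 11 lay above every WT library, and the KO library of 24 h was the exception. KO minus WT gave a log2 difference of 1.52 (SE 0.21, adjusted p = 2.4e-05), the largest among the heart, atrial and ventricular genes after that of Nppa, and mean KO was 2.88 times mean WT. The essential chain Myl3, which slow skeletal muscle shares, had medians of 5.50 RPKM in WT (2.46 to 7.74) and 8.99 in KO (5.13 to 12.8), with a log2 difference of 0.70 (SE 0.16, adjusted p = 0.0030). Myh7 (chr14:54970688-54994549, minus strand), the slow β-myosin heavy chain, had medians of 4.20 RPKM in WT (2.70 to 6.17) and 8.42 in KO (5.23 to 10.9). Its log2 difference was 0.86 (SE 0.14, adjusted p = 1.6e-04), with KO higher at all 12 hours.

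**Figure D2:**
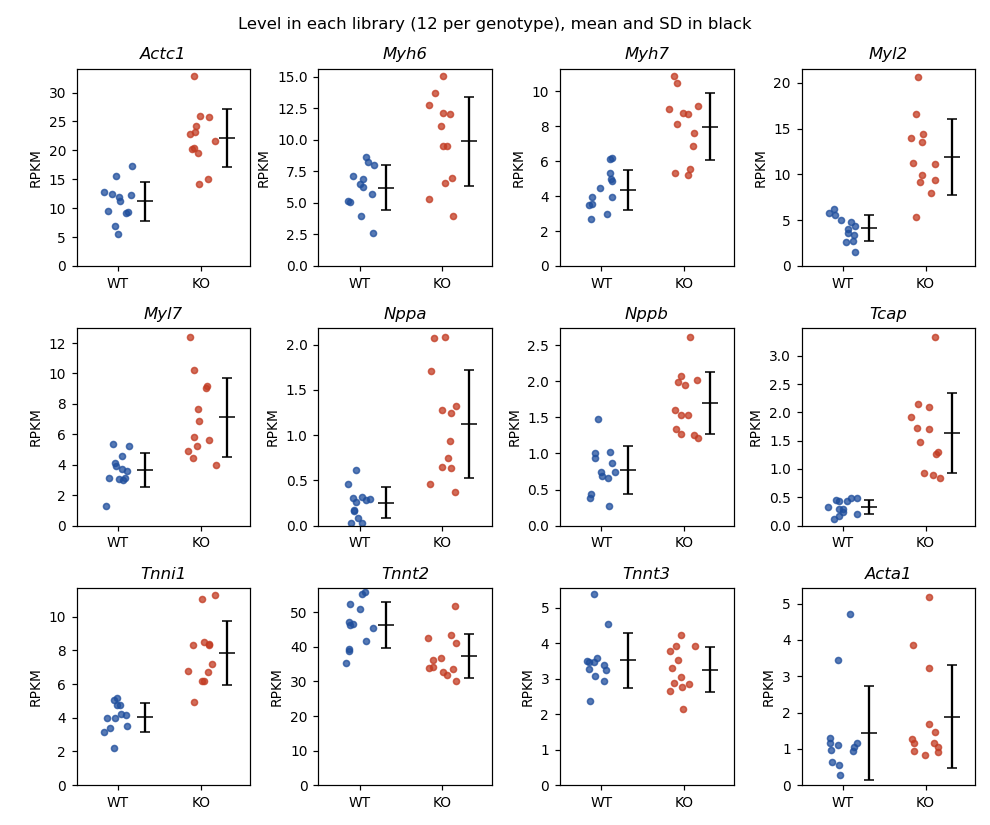
RPKM of 12 genes in each of the 12 WT (blue) and 12 KO (red) libraries, with the mean and SD of each genotype in black. Tcap shows no overlap between the genotypes, Tnnt2 is the gene with the lower KO mean that passed the test, and Acta1 has a few libraries far above the rest in both genotypes.

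Of the 7 skeletal genes that were tested, Tnni1 and Tnni2 rose and 5 did not pass. Tnni1 (chr1:135799421-135810989, plus strand) encodes slow skeletal troponin I, which is also the troponin I of the embryonic heart. It lay between 2.18 and 5.15 RPKM in WT (median 4.07) and between 4.95 and 11.3 in KO (median 7.75). KO was higher at all 12 hours and 11 KO libraries lay above the highest WT library. On the log2 scale the genotypes differed by 0.94 (SE 0.13, adjusted p = 2.7e-05). Tnni2, the fast skeletal troponin I, was between 2.02 and 3.41 RPKM in WT (median 2.87) and between 2.69 and 5.81 in KO (median 3.82), with a log2 difference of 0.46 (SE 0.11, adjusted p = 0.0028).

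Acta1, skeletal α-actin, lay between 0.283 and 4.71 RPKM in WT (median 1.07) and between 0.829 and 5.19 in KO (median 1.21), with a log2 difference of 0.45 (95% interval −0.28 to 1.18, adjusted p = 0.37). The slow troponin T gene Tnnt1 had medians of 0.669 RPKM in WT (0.227 to 1.29) and 0.590 in KO (0.344 to 2.01), with a log2 difference of 0.13 (95% interval −0.38 to 0.65, adjusted p = 0.73). The fast troponin T gene Tnnt3, which lies 54430 bases from Tnni2 on chromosome 7, had medians of 3.41 RPKM in WT (2.37 to 5.39) and 3.18 in KO (2.13 to 4.22), with a log2 difference of −0.11 (95% interval −0.34 to 0.13, adjusted p = 0.52). These intervals are wide for Acta1 and Tnnt1, whose libraries differed from each other by an SD of 45.0% to 89.6% of the mean.

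The fast calcium pump Atp2a1 had medians of 0.272 RPKM in WT (0.159 to 0.947) and 0.213 in KO (0.149 to 0.632) and a log2 difference of −0.13 (adjusted p = 0.69), which was 0.05 without the libraries of 28 h. Skeletal calsequestrin, Casq1, had medians of 0.318 RPKM in WT (0.124 to 0.426) and 0.422 in KO (0.225 to 0.806) and a log2 difference of 0.41 (SE 0.16, adjusted p = 0.066). It passed without the libraries of 16 h (log2 difference 0.51, adjusted p = 0.025) or of 44 h (0.48, adjusted p = 0.042). Of the genes that were not tested, Tnnc2, the fast troponin C, reached 1.47 RPKM in WT (median 0.0913) and 1.37 in KO (median 0.0752). Mybpc1, the slow myosin-binding protein C, reached 0.457 RPKM in WT (median 0.0761) and 0.338 in KO (median 0.0591). The calsarcin gene Myoz1 had medians of 0.0326 RPKM in WT and 0.0531 in KO, on about 1 fragment per library (means of 0.917 and 1.25).

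The high values of Acta1, Tnnc2 and Atp2a1 fell in the same few libraries. In WT, Acta1 was at 4.71 RPKM at 28 h and 3.45 at 44 h and at most 1.30 in the other libraries. In KO it was at 3.85, 3.23 and 5.19 RPKM at 32, 36 and 40 h and at most 1.69 elsewhere. Tnnc2 stood at 1.47 and 0.835 RPKM in the same WT libraries and at 1.37, 0.581 and 1.06 in the same KO libraries, against at most 0.168 in the others. Atp2a1 was likewise at 0.947 and 0.503 RPKM at 28 and 44 h in WT, and at 0.632, 0.521 and 0.501 RPKM at 32, 36 and 40 h in KO, against at most 0.306 in the others. Mybpc1 followed, at 0.457 and 0.259 RPKM in these WT libraries and at 0.338, 0.118 and 0.289 RPKM in these KO libraries. Tnnt1 and Tnnt3 also had their highest values at 28 h in WT and at 40 h in KO. Casq1 did not follow, with its peaks in the WT library of 16 h and the KO library of 28 h. Tnni2 peaked outside these libraries in WT, at 20 h, and within them in KO, at 32 h. The hours of the high libraries differed between the genotypes, and each hour had 1 library per genotype.

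**Figure D3:**
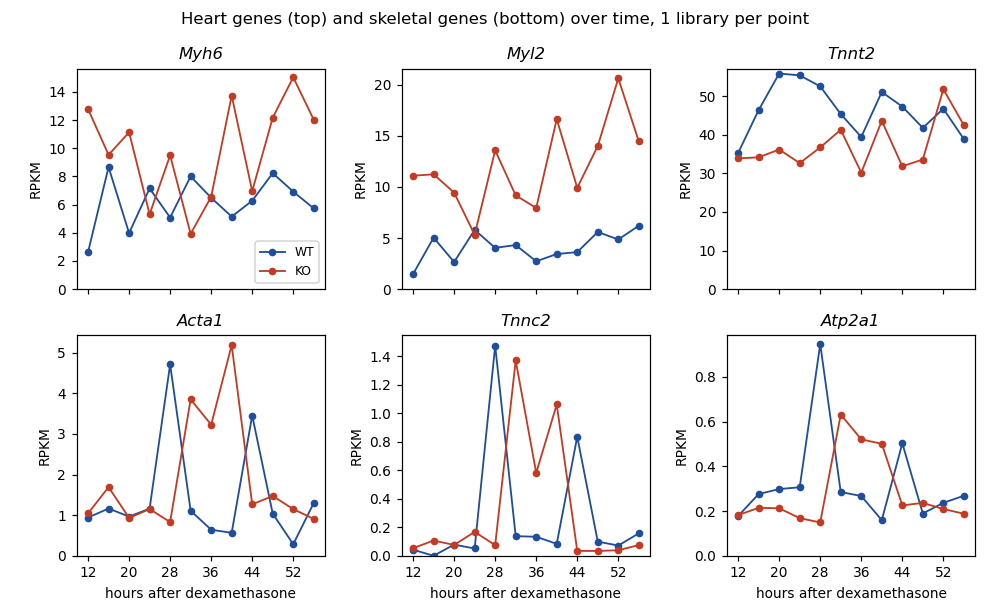
RPKM of 3 heart or chamber genes (top) and 3 skeletal genes (bottom) against hours after dexamethasone, in WT (blue) and KO (red), 1 library per point. Acta1, Tnnc2 and Atp2a1 stand high together at 28 and 44 h in WT and at 32, 36 and 40 h in KO, and Myl2 of KO lies above WT at 11 of 12 hours.

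Among the genes shared by striated muscles, Tcap had the largest difference. Tcap (chr11:98383811-98384953, plus strand) encodes telethonin, which caps titin at the Z-disc. Its WT libraries lay between 0.122 and 0.492 RPKM (median 0.312) and its KO libraries between 0.843 and 3.33 (median 1.59), so that every KO library lay above every WT library, which held for 0.199% of all tested genes and for no other gene of the set. Tcap passed the filter through KO alone, with means of 0.311 RPM in WT and 1.55 in KO, so its entry into the test used the group in which it was high. The log2 difference was 1.98 (SE 0.20, adjusted p = 4.8e-07), and mean KO was 4.97 times mean WT. With a pseudocount of 1 in place of 0.1 the log2 difference became 0.95. Mean fragments per library were 5.50 in WT and 27.7 in KO.

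Tcap lies 383 kb from Nr1d1, the REV-ERBα gene, on chromosome 11. Of the 39 tested genes within 1 Mb of Nr1d1, 4 were higher and 8 were lower in KO, against 11.2% and 14.7% of all tested genes, with a median log2 difference of −0.02. Of the 9 tested genes between Nr1d1 and Tcap, 0 were higher by limma at an adjusted p under 0.05 (0 at an unadjusted p under 0.05), and their largest log2 difference was 0.17.

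The giant spring protein titin, Ttn, was at 0.0174 to 0.0558 RPKM in WT (median 0.0361) and at 0.0377 to 0.0799 in KO (median 0.0636). These low values belong to a transcript of 101361 exonic bases and rested on 64.7 and 107 fragments per library. KO minus WT gave a log2 difference of 0.24 (SE 0.05, adjusted p = 0.0013) with KO higher at 11 of 12 hours. The ratio of the means was 1.68, since the pseudocount of 0.1 exceeds the level of Ttn, and with a pseudocount of 1 the call was lost (0.03, adjusted p = 0.095). The short second row of Ttn was at 0 in all WT libraries and reached 0.0326 RPKM in KO.

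Actn2, the α-actinin that cross-links actin at the Z-disc, had medians of 1.09 RPKM in WT (0.644 to 1.78) and 2.05 in KO (1.19 to 3.34), with a log2 difference of 0.85 (SE 0.15, adjusted p = 3.1e-04). Desmin, Des, the intermediate filament of muscle cells including smooth muscle, had medians of 4.30 RPKM in WT (2.92 to 5.33) and 6.26 in KO (4.60 to 7.34), with a log2 difference of 0.58 (SE 0.10, adjusted p = 1.3e-04) and KO higher at all 12 hours. Muscle creatine kinase, Ckm, had medians of 0.592 RPKM in WT (0.164 to 0.992) and 1.08 in KO (0.449 to 1.86), with a log2 difference of 0.82 (SE 0.20, adjusted p = 0.0043). All 3 of these genes kept their calls with any hour left out.

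The Z-disc protein Ldb3 had medians of 1.04 RPKM in WT (0.746 to 1.33) and 1.41 in KO (0.993 to 1.74), with a log2 difference of 0.31 (SE 0.10, adjusted p = 0.019). Xirp1, an actin-binding protein of the intercalated disc, had medians of 0.154 RPKM in WT (0.0891 to 0.238) and 0.226 in KO (0.0985 to 0.331), with a log2 difference of 0.34 (SE 0.11, adjusted p = 0.027). The M-band protein Myom2 had medians of 0.749 RPKM in WT (0.288 to 1.2) and 0.889 in KO (0.672 to 1.33), with a log2 difference of 0.41 (SE 0.14, adjusted p = 0.035). These 3 calls turned on few libraries. Ldb3 was lost without the hours of 28, 40 or 52 h (log2 differences between 0.26 and 0.27, adjusted p between 0.050 and 0.053). Xirp1 was lost without 12, 40 or 52 h (between 0.28 and 0.30, adjusted p between 0.060 and 0.073). Myom2 was lost without 12, 20, 40, 52 or 56 h (between 0.28 and 0.40, adjusted p between 0.050 and 0.090), with no filter (adjusted p = 0.052) and with the hour as a block (adjusted p = 0.059).

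Myom1 (chr17:71019557-71126856, plus strand), the other M-band myomesin, fell. Its WT libraries ran from 1.67 to 2.35 RPKM (median 1.95) and its KO libraries from 1.42 to 2.11 (median 1.65), and 6 KO libraries lay below the lowest WT library. On the log2 scale the genotypes differed by −0.22 (SE 0.06, adjusted p = 0.0082). In the first 6 hours sampled it was −0.34 (adjusted p = 0.014) and in the last 6 it was −0.11 (adjusted p = 0.44), and the difference in time trend did not pass (adjusted p = 0.77). Nexilin, Nexn, an actin-binding Z-disc protein, had the smallest log2 difference of the 39 genes, with medians of 6.63 RPKM in WT (6.02 to 8.47) and 6.75 in KO (6.19 to 7.68) and a log2 difference of −0.02 (95% interval −0.13 to 0.08, adjusted p = 0.75). The small muscle protein Smpx had medians of 0.369 RPKM in WT (0.0826 to 0.546) and 0.543 in KO (0.219 to 0.798) and missed the threshold (log2 difference 0.50, SE 0.20, adjusted p = 0.063). Without the libraries of 24 h it passed (0.61, adjusted p = 0.031), as it did without those of 36 h (0.57, adjusted p = 0.050) and with the hour as a block (0.50, adjusted p = 0.034).

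Actc1, which rose, and Myom1, which fell, both carried a CArG box, the site of serum response factor, in the 150 bases upstream of the start, and their stretches are shown for that reason. That of Actc1 is chr2:114052876-114053025 on the minus strand and that of Myom1 is chr17:71019407-71019556 on the plus strand of GRCm38.p6. Capitals mark the CArG box and, in Myom1, AGATAA on the opposite strand.
Actc1: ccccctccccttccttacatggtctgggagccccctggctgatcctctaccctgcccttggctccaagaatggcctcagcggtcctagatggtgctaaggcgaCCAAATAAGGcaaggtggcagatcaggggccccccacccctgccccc
Myom1: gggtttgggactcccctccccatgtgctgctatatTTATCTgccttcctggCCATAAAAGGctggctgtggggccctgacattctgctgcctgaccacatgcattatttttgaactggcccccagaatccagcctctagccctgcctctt
Counted from the start site, the box began at −47 in Actc1 and at −99 in Myom1.

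Of the 43 genes, 35 had a RefSeq promoter entry and 34 of these started within 500 bases of the deposited start. In the 250 bases upstream of these 34 starts, read on both strands, a CArG box was found in 6 genes (Acta1, Actc1, Ldb3, Myl3, Myl7 and Myom1), or 17.6%, against 1.38% of 26990 promoters of other genes. A MEF2 motif was found in 4 (Casq2, Mybpc3, Myoz2 and Ttn), or 11.8%, against 3.0%, and CATTCC in 9, or 26.5%, against 12.6%. AGATAA was found in 17.6% against 10.2%, TATAAA in 14.7% against 13%, and AGGTCA, the core of the sequence that REV-ERBs and RORs bind, in 3 genes (Actn2, Atp2a1 and Ryr2), or 8.82%, against 13.8%. CArG and MEF2 matches can contain TATAAA. For the 34 genes the RefSeq start nearest the deposited start was used. The other genes gave their first listed start, with no limit on distance or expression, so the shares rest on unlike choices of start. Of the 6 genes with a CArG box 4 were higher in KO and 1 was lower, and of the 3 with AGGTCA 1 was higher. All 4 genes with a MEF2 motif were higher, and of the 9 with CATTCC 5 were higher and 1 was lower. For AGATAA 2 of 6 were higher and 2 lower, and for TATAAA 3 of 5 were higher. Of all tested genes of the set 69.2% were higher and 5.13% lower, against 11.2% and 14.7% of all tested genes.

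Paralogs of the same protein were also set against each other as shares of their summed RPKM, in 13 pairs. Myl2 made up 34.3% to 66.7% of Myl2 and Myl7 in WT (median 52.3%) and 46.4% to 73.7% in KO (median 65.0%). The mean share was higher in KO by 9.77 percentage points, with KO higher at 11 of 12 hours (permutation test, two-sided, p = 0.019, adjusted over 13 pairs p = 0.124). Tnni2 made up 28.2% to 52.0% of Tnni2 and Tnni1 in WT (median 41.1%) and 22.2% to 43.3% in KO (median 35.2%), and its mean share fell by 7.66 points (permutation test, p = 0.0080, adjusted p = 0.103). Neither passed after adjustment, nor did any other pair. Without the libraries of 24 h both did pass, with 11.8 points for Myl2 and −8.97 points for Tnni2 (permutation test, adjusted p = 0.047 for each), and Tnni2 also passed without those of 32 h (−9.53 points, adjusted p = 0.016).

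Myh7 made up 36.5% to 50.7% of both heavy chains in WT (median 41.9%) and 32.0% to 67.4% in KO (median 44.7%), so that the rise of both genes left their balance within the spread of the libraries (3.97 points, permutation test, adjusted p = 0.282). Nppb made up 30.6% to 97.8% of both natriuretic peptide genes in WT (median 76.5%) and 38.0% to 80.8% in KO (median 64.9%), a difference of −12.2 points (adjusted p = 0.282 by the permutation test). It passed without the libraries of 24 h (−15.8 points, adjusted p = 0.048). Tnni1 was 55.0% ± 7.43 (SD, n = 12) of Tnni1 and Tnni3 in WT and 58.1% ± 3.83 in KO, and Myl3 was 65.3% ± 8.39 of Myl3 and Myl4 in WT and 64.6% ± 8.04 in KO. Acta1 was 10.9% ± 7.35 of both sarcomeric actins in WT and 7.64% ± 4.49 in KO, and Tnnt1 was 1.43% ± 0.603 of Tnnt1 and Tnnt2 in WT and 2.06% ± 1.22 in KO. Tnnc2 was 5.87% of both troponin C genes in WT and 4.69% in KO, and Casq1 was 41.2% of both calsequestrins in WT and 34.8% in KO. Mybpc1 was 8.42% of Mybpc1 and Mybpc3 in WT and 4.78% in KO, Myoz1 was 5.95% of both calsarcins in WT and 4.07% in KO, and Tnnt3 was 84.5% of both skeletal troponin T genes in WT and 81.8% in KO.

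**Figure D4:**
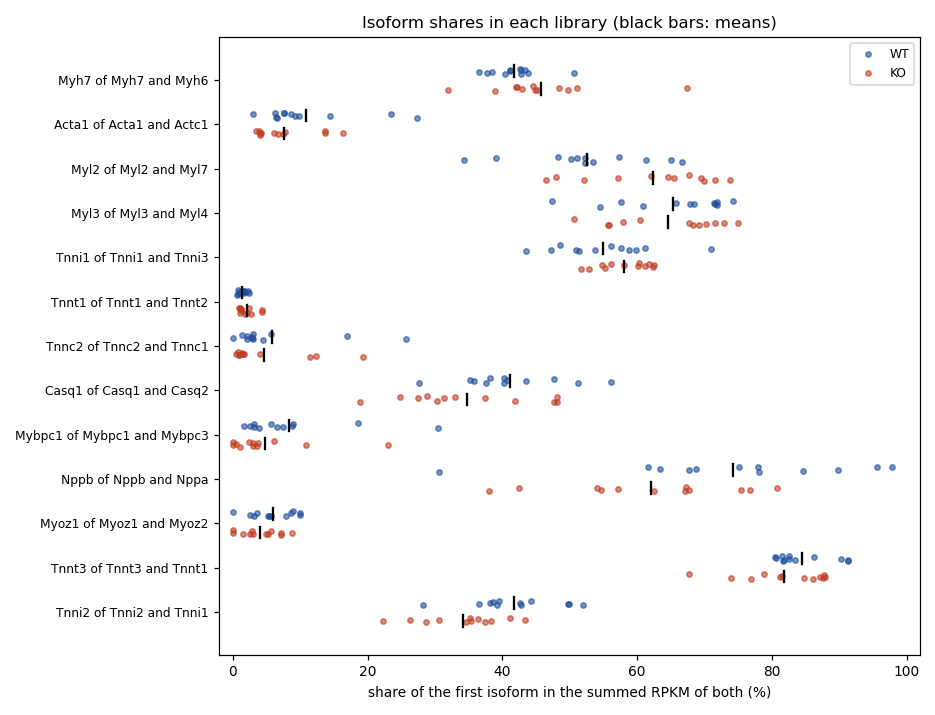
Share of the first-named paralog in the summed RPKM of each pair (horizontal axis, %), in every WT (blue) and KO (red) library, with means as black bars. The ranges of WT and KO overlap in all 13 pairs, including Myl2 of Myl2 and Myl7, with means of 52.6% and 62.4%.

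Time after dexamethasone was tested in the same limma framework with a 24 h rhythm and a linear trend for each genotype. None of the 39 genes passed for a rhythm in WT, a rhythm in KO, a trend in WT or a trend in KO, and none passed for a difference of rhythm or of trend between the genotypes (limma, adjusted p under 0.05). Over all tested genes these tests called 0.0463%, 0.0728%, 2.38%, 2.38%, 0% and 0%. At an unadjusted p under 0.05 the counts among the 39 genes were 2, 1, 3, 1, 1 and 2, where all tested genes gave 7.57%, 7.92%, 15.2%, 16.7%, 4.82% and 6.38%. The smallest adjusted p among the 39 genes was 0.395 for a rhythm (Nppb in WT) and 0.199 for a trend (Tnni3 in WT).

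Pairs of genes were also compared over the 12 libraries of each genotype. Of 14 correlations of log2(RPKM + 0.1), 7 gene pairs in each genotype, that of the heavy chains Myh6 and Myh7 in WT passed (Pearson r = 0.907, adjusted permutation p = 4.2e-04, Spearman rho = 0.923, adjusted permutation p = 0.0013). Without the WT libraries of 12 and 20 h, the farthest from the median of Myh6, r was 0.865. In KO the same pair had r = 0.540 and rho = 0.685 (adjusted permutation p = 0.277 and 0.110), and the difference between the genotypes was not tested. The genes lie 4080 bases apart and are near-identical in parts, so reads that map to both may have been lost. Myh6 and Tnnt2 gave r = 0.184 in WT and 0.402 in KO, Myl7 and Myl2 gave 0.494 and 0.394, and Actc1 and Acta1 gave 0.388 and 0.273 (adjusted permutation p of 0.277 or more for each).

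As a description over all 24 libraries, with each genotype centred on its own mean, each gene was set against the mean of the other heart, atrial and ventricular genes and against the mean of the other tested skeletal genes. Likeness to the heart mean was highest for Myl3 (Pearson r = 0.91), Actn2 (0.89), Myh6 (0.87), Actc1 (0.86) and Ttn (0.86). Tnni1, which was listed as skeletal, had r = 0.84 with the heart mean and 0.63 with the skeletal mean. Conversely Myl4 and Casq2, listed with atrium and heart, had r = 0.84 and 0.77 with the skeletal mean and 0.49 and 0.44 with the heart mean. Likeness to the skeletal mean among the skeletal genes was highest for Atp2a1 (0.82), Tnnt1 (0.79), Tnnt3 (0.78) and Acta1 (0.72). Nppb (0.01) and Ankrd1 (0.08) had the weakest likeness to the heart mean among the heart genes, and Tnnt2 had r = 0.51 (0.30 within WT and 0.70 within KO). The points share libraries, and so their depth and cell makeup.

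**Figure D5:**
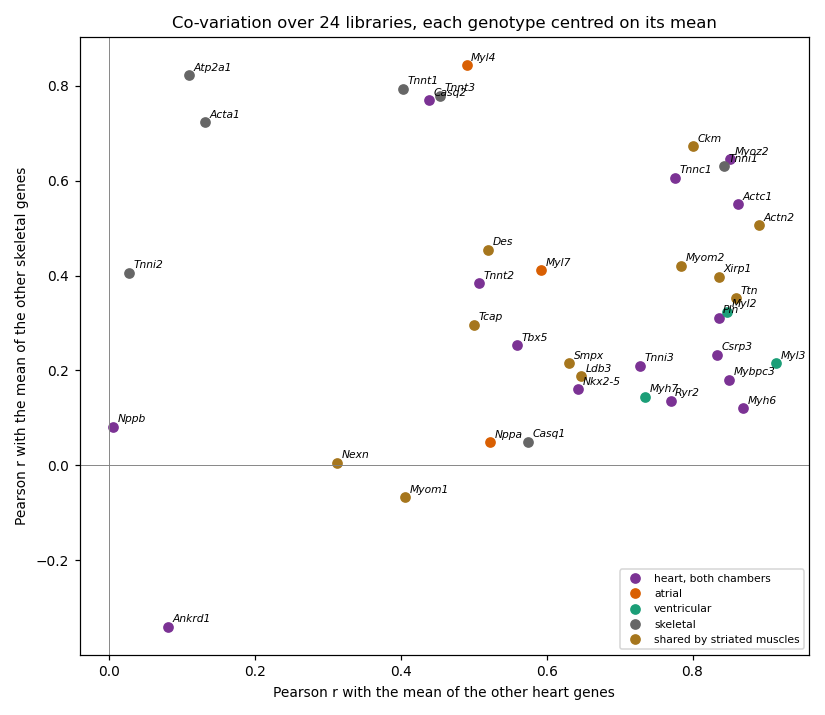
Pearson r of each tested gene with the mean of the other heart, atrial and ventricular genes (horizontal axis) and with the mean of the other skeletal genes (vertical axis), over 24 libraries centred by genotype. Myl3 and Myh6 lie to the right and low, Myl4 and Casq2 lie high near the skeletal genes, and Nppb and Ankrd1 lie near 0 on the horizontal axis.

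The heart mean was lowest in the WT library of 12 h, by 0.75 on the log2 scale below the WT average, and in the KO library of 24 h, by 0.51 below the KO average. It was highest in the KO libraries of 40 and 52 h, at 0.47 above in each. The WT library of 12 h held the lowest WT value of 28 of the 43 genes, and the KO library of 24 h held the lowest KO value of 18.

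Outside the set, genes whose pattern was most like the heart mean over these 24 libraries included Srl (r = 0.82), Asb11 (0.78), Smyd1 (0.75), Mb (0.74), Alpk2 (0.72), Fsd2 (0.72) and Baz2a (0.71). Sarcalumenin (Srl) binds calcium in the sarcoplasmic reticulum, Smyd1 is a muscle methyltransferase and Mb is myoglobin. The genes most like the skeletal mean were Myh3 (0.92), Myh8 (0.85), Myog (0.85), Mylpf (0.83), Mybph (0.74), Fndc5 (0.70), Synpo2l (0.69) and Il34 (0.69). Myh3 and Myh8 are the embryonic and perinatal skeletal heavy chains and Myog is the transcription factor myogenin.

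A list of 12 heart transcription factors and cofactors included the methyltransferase Smyd1. Of these 4 rose and 5 fell in KO, or 33.3% and 41.7%, against 11.2% and 14.7% of all tested genes. Their median log2 difference was −0.04. Gata4 fell from a median of 4.93 RPKM to 3.89 (log2 difference −0.32, SE 0.07, adjusted p = 0.0012), and Gata6, Mef2c, Tbx20 and Isl1 fell with log2 differences between −0.18 and −0.37. Hand1, Myocd, Irx4 and Smyd1 rose, with log2 differences of 0.28, 0.26, 0.40 and 0.72. Irx4 passed the filter through KO alone, the group in which it was high, with means of 0.421 RPM in WT and 0.654 in KO. Hand2 had medians of 52.2 RPKM in WT and 49.8 in KO and did not pass, like Hey2 and Hopx.

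Of 15 skeletal myogenic regulators and embryonic myosins, 13 were in the table, 4 were tested and 0 passed by limma in either direction, also at an unadjusted p under 0.05. Myog reached 0.867 RPKM in WT and 1.63 in KO, with medians of 0.0664 and 0.0434, and Myod1 had medians of 0.0160 and 0. The satellite cell factor Pax7 did not exceed 0.0973 RPKM, and Myf5 was at 0 in all WT libraries and reached 0.0837 in KO.

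Of 12 genes of heart channels and calcium handling, 10 were tested, Trdn and Gja1 rose, Hcn4 fell and 7 did not pass, where all tested genes gave 11.2% higher and 14.7% lower. Hcn4, the pacemaker channel, had a median of 2.26 RPKM in WT (0.882 to 3.57) and 1.13 in KO (0.720 to 1.83), a log2 difference of −0.78 (SE 0.18, adjusted p = 0.0026). Triadin, Trdn, rose by 0.50 and connexin 43, Gja1, by 0.14 on the log2 scale. Of 18 further sarcomere and Z-disc genes, 13 were tested, 8 rose and 0 fell by limma (0 fell at an unadjusted p under 0.05). Mb rose from a median of 1.10 RPKM to 2.76 (log2 difference 1.21, SE 0.20, adjusted p = 1.1e-04), Cox6a2, the muscle form of a cytochrome oxidase subunit, by 0.75, Nebl by 0.57, Tpm2 by 0.51, Pgam2 by 0.49, and Tpm1 and Cryab by 0.14 each.

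Markers of other cell types also differed between the genotypes, where all tested genes gave 11.2% higher and 14.7% lower. All 4 epithelial markers rose, with a summed level of 289.5 to 518.1 RPM in WT and 508.1 to 821.2 in KO. Of 7 smooth muscle markers 4 rose (Des, Cnn1, Myh11 and Tagln), with sums of 615.0 to 809.9 RPM in WT and 659.2 to 897.2 in KO. Des is also a gene of the set described above. Of 6 fibroblast markers 3 rose and 2 fell, with sums of 12983 to 15817 RPM in WT and 13991 to 19112 in KO, and of 5 endothelial markers 2 rose, with sums of 23.1 to 75.2 and 38.1 to 69.6. Of 6 neuron markers 3 fell, with sums of 10.4 to 96.0 RPM in WT and 6.44 to 31.6 in KO. At an unadjusted p under 0.05 by limma all 6 neuron markers were lower. At that threshold 4 epithelial, 4 smooth muscle, 3 fibroblast and 3 endothelial markers were higher, and 2 fibroblast markers and 1 endothelial marker were lower. The share of all tested genes at that unadjusted threshold was not taken. For the neuron markers the median log2 difference was −1.11. That median was 0.62 for the epithelial, 0.28 for the smooth muscle, 0.11 for the fibroblast and 0.58 for the endothelial markers. None of 4 hepatocyte and yolk sac markers passed by limma at an adjusted p under 0.05, nor at an unadjusted p under 0.05. The 8 heart muscle markers, all of them genes of the set described above, 5 of which rose and 1 of which fell, summed to 63.6 to 120.4 RPM in WT and 81.9 to 173.3 in KO, and were above 0 in every library. The 8 skeletal markers in the table summed to 0.373 to 18.2 RPM in WT and 0.317 to 17.7 in KO, and Myod1, Myog, Myf5 and Pax7 were each at 0 in some libraries. The part of cell makeup in the differences between WT and KO was not tested.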

How the data were processed

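RNA from 24 libraries, 12 WT and 12 KO, was measured by poly(A)-selected paired-end sequencing with a kit that does not mark strand. The authors trimmed reads with Trimmomatic 0.36, aligned them to GRCm38/mm10 with STAR 2.5.4b, dropped those of mapping quality below 10, and used HOMER to count reads on exons of the UCSC known canonical set. Values were deposited as RPKM, with other columns giving exonic length in bases. Undoing both scalings returned multiples of 0.5 fragment (tolerance 0.005) in 100% of cases. These fragments, 6183500.5 to 10287969 on exons per library, served only to describe depth and cover counting error only.

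Genes with a mean above 0.5 RPM in WT or KO entered a limma fit (version 3.58.1, R 4.3.3) of log2(RPKM + 0.1), with Benjamini-Hochberg adjustment over 15112 genes and a threshold of 0.05. Genotype was the only term. Rhythm (24 h cosine and sine) and trend were fitted in a second model. The tests were checked on simulated data. Isoform shares and correlations were tested by two-sided permutation (100000 resamples) in Python 3.11.15 with scipy 1.17.1. Promoters came from RefSeq (GRCm38.p6). All genes of the set are accounted for. Full values are given for genes past a limma threshold, for both genes of an isoform pair and for the highest and lowest mean. Genes of the other lists are named where they passed or a count needs them, with the 8 genes most like the heart and the skeletal mean, of which 1 is not reported here although it is counted. The genes and lists were chosen with earlier results of these data known. Alternatives covered pseudocount, filter, normalization, prior variance, covariates, the hour as a block and hours left out, and the first and last 6 hours were added after the data had been seen. Same-hour libraries were not treated as pairs.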

Additional observations from a re-analysis of the deposited data

How the results depend on the processing

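Over the planned settings the number of genes higher in KO ran from 22 (filter of at least 1 RPKM) to 29 and the number lower stayed at 2, with 23 to 29 and 2 when each hour was left out in turn. The filter of at least 1 RPKM left 28 genes of the set to test, against 39 in the main fit. Over all genes it called 1459 of 12243 higher. In the first 6 hours sampled, 8 genes of the set were higher, and in the last 6, 0 were lower, in fits with fewer libraries chosen after the data were seen. Those fits called 493 of 15078 genes higher in the first 6 hours and 1008 of 15158 lower in the last 6. Of the 29 calls none reversed, and Des, Tcap, Myh7, Actc1, Nppb, Nppa, Myl2 and Tnni1 passed in all 22 settings. Same-hour correlations of deviations over 15112 genes ran from −0.175 to 0.389 and were over 0.1 at 7 of 12 hours. They were not set against correlations of different hours, so they do not decide whether the hours pair the libraries. With the hour as replicate block 26 were higher and 2 lower, and the exact sign-flip test of same-hour isoform shares, the paired form of that test, called none of the 13 pairs. Leaving out each hour moved the share difference, in points, of Myl2 in Myl2 and Myl7 between 8.81 and 11.8, of Nppb in both peptides between −15.8 and −8.63, of Tnni2 in Tnni2 and Tnni1 between −9.53 and −6.35, and, with a change of sign, of Myl3 in Myl3 and Myl4 between −2.78 and 0.73 and of Tnnc2 in Tnnc2 and Tnnc1 between −2.77 and 0.92. As a log2 ratio the Myoz1 to Myoz2 difference passed (−0.75, permutation test, adjusted p = 0.027). Without the 2 libraries farthest from the median r changed sign for Myh6 and Tnnt2 in WT (−0.209), Myl7 and Myl2 in WT (−0.600), Tnnt3 and Tnni2 in KO (−0.065) and Actc1 and Acta1 in KO (−0.276), none of which had passed. Log2 differences that had not passed changed sign for Ankrd1 (−0.0316), Nexn (0.0816) and Acta1 (−0.0137) in the first 6 hours, for Atp2a1 (0.14) and Tnnt3 (0.0127) in the last 6 hours and for Atp2a1 without the libraries of 28 h (0.0507). No other hour left out changed the sign of Atp2a1, whose lowest value was −0.248 without 40 h. The cause of these changes was not tested. The counts of genes with a rhythm or a trend were 0 in every setting run. Depth limits the low genes most, such as Nppa in WT, Myoz1 and Mybpc2.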
